A study of Homo sapiens with 10 samples.

Results

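Ribosome biogenesis and nucleolar factors were followed here through a short block of translation initiation in a human leukaemia line. The set was named by function as a list of 39 genes: RNA polymerase I subunits and their factors, the proteins of box C/D and box H/ACA small nucleolar ribonucleoproteins (snoRNPs), nucleolar scaffolds and assembly factors of both ribosomal subunits. Of the 39, 38 were matched by symbol to 1 gene ID each among 55889 IDs, and all 38 were among the 10297 genes that passed a minimum mean of 1 RPKM in both assays. BOP1, a large subunit assembly factor that works with PES1 and WDR12, was not analysed here. KOPT-K1 cells, a line from a T-cell acute lymphoblastic leukaemia (T-ALL), received silvestrol at 25 nM or its solvent DMSO for 45 minutes. Silvestrol is a plant compound that clamps eIF4A, the helicase that unwinds the 5′ untranslated region (UTR) of an mRNA, onto RNA. Ribosome-protected fragments (footprints) were sequenced in 2 silvestrol and 2 DMSO libraries, and total RNA in 3 silvestrol and 3 DMSO libraries. All groups were the same cell line, with no genotype difference between them.

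Ribosomes are built in the nucleolus. RNA polymerase I transcribes the long ribosomal RNA precursor, snoRNPs guide its methylation and pseudouridylation, and a large cast of assembly factors folds, cuts and exports the pre-subunits. The genes of this programme are abundantly expressed in proliferating cells, and many of them are known targets of MYC, an oncogenic driver in T-ALL. The study's title links RNA G-quadruplexes, structures that G-rich RNA can fold into, to a need for eIF4A. The comparison here asks whether mRNAs of the ribosome-building machinery lost ribosomes relative to other mRNAs when eIF4A was inhibited.

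Depth was estimated, because the values were deposited as RPKM, which scales reads by gene length and library total. By this estimate the footprint libraries came to 1.66 to 2.38 M reads, and the RNA libraries, roughly, to 127 to 216 M. All 10 T-lineage markers were present in DMSO RNA, at 3.68 to 675 RPKM, and all 5 myeloid, all 3 erythroid and both matched stromal markers were under 1 RPKM. Of 5 B cell markers, 3 were under 1 RPKM, 2 of them at 0, and the highest reached 32.0 RPKM. RPKM is relative to each library's total, so a fall of translation shared by all mRNAs would not be seen. The labels leave unsaid whether replicates were separate cultures. The spread behind each p-value is that between libraries and may be technical.

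The ribosome biogenesis genes as a group held about the same share of each assay under both treatments. Summed over the 38 genes, they took 0.593% and 0.536% of the RPKM of all tested genes in silvestrol footprints and 0.570% and 0.535% in DMSO footprints. In RNA the share was 0.756%, 0.778% and 0.764% with silvestrol and 0.774%, 0.761% and 0.766% with DMSO. The groups overlapped in both assays. The median member stood at 36.8 RPKM in DMSO RNA against 10.5 RPKM over all tested genes, and at 27.2 RPKM in DMSO footprints against 7.47 RPKM.

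**Figure D1:**
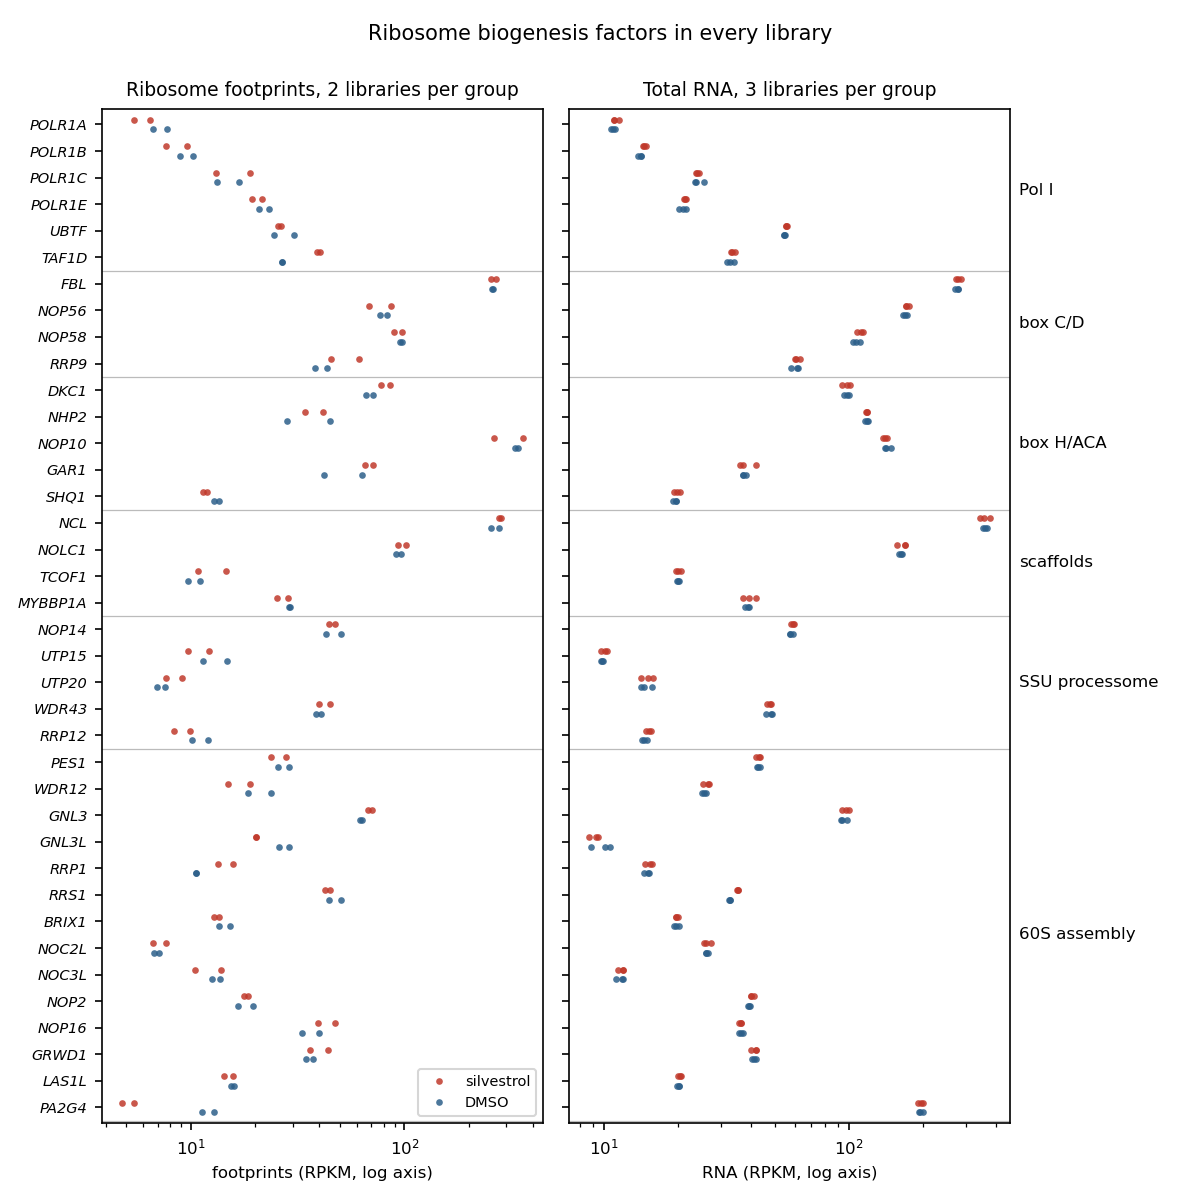
RPKM of the 38 genes in every library on log axes, footprints on the left and total RNA on the right, with silvestrol in red above DMSO in blue and genes grouped by role. RNA ranges of the treatments overlap for 34 of the 38 genes, while PA2G4 footprints (bottom row) lie at 4.77 and 5.44 RPKM with silvestrol and at 12.8 and 11.3 RPKM with DMSO.

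Translational efficiency is how many footprints a gene gives for the RNA it has. Of the 38 genes, 1 passed the test in translational efficiency, PA2G4, which was lower with silvestrol (adjusted p under 0.05 by limma with weights per assay). Among all 10297 genes 9 were called lower, a background of 0.0874%, and 2 were called higher (0.0194%), or 0.107% in either direction. In footprints alone none of the 38 was called in either direction by limma, nor by voom on estimated reads, against 3 genes called lower (0.0291%) and 2 called higher (0.0194%) over all genes, or 0.0486% in either direction. At an unadjusted p under 0.05, 2 of the 38 were lower and 1 higher in footprints, beside 4.87% of all genes lower and 2.12% higher. In RNA none was called by limma, against 1 gene called lower (0.00971%) and 28 called higher (0.272%), or 0.282% in either direction. At an unadjusted p under 0.05, 0 of the 38 were lower and 1 higher in RNA, beside 2.27% of all genes lower and 6.95% higher. The median log2 change of the members was -0.06 in translational efficiency, -0.03 in footprints and 0.02 in RNA, beside -0.08, -0.07 and 0.003 over all genes.

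The RNA data bound the changes tightly. RNA changes of the 38 genes ran between -0.10 (GNL3L) and 0.10 (RRS1) on the log2 scale, with 31 above 0 and 7 below. Over all 10297 genes tested, 5402 were above 0 and 4895 below. For 37 of the 38 the 95% interval of the RNA change lay within 0.2 log2 units of 0, and the exception was GNL3L, whose interval reached -0.24. Of all 10297 genes, 8914 had an RNA interval within that bound. Footprints bound them loosely: the median distance from estimate to interval end was 0.42 in footprints and 0.07 in RNA. In translational efficiency the interval lay within 1 log2 unit of 0 for 34 of the 38, so for these 34 it held no change of 2-fold or more. That was so for 6369 of all 10297 genes. Without PA2G4, translational efficiency changes ran between -0.34 (WDR12) and 0.53 (TAF1D). The WDR12 value was -0.17 without either footprint library 1 and -0.52 without DMSO footprint library 2.

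**Figure D2:**
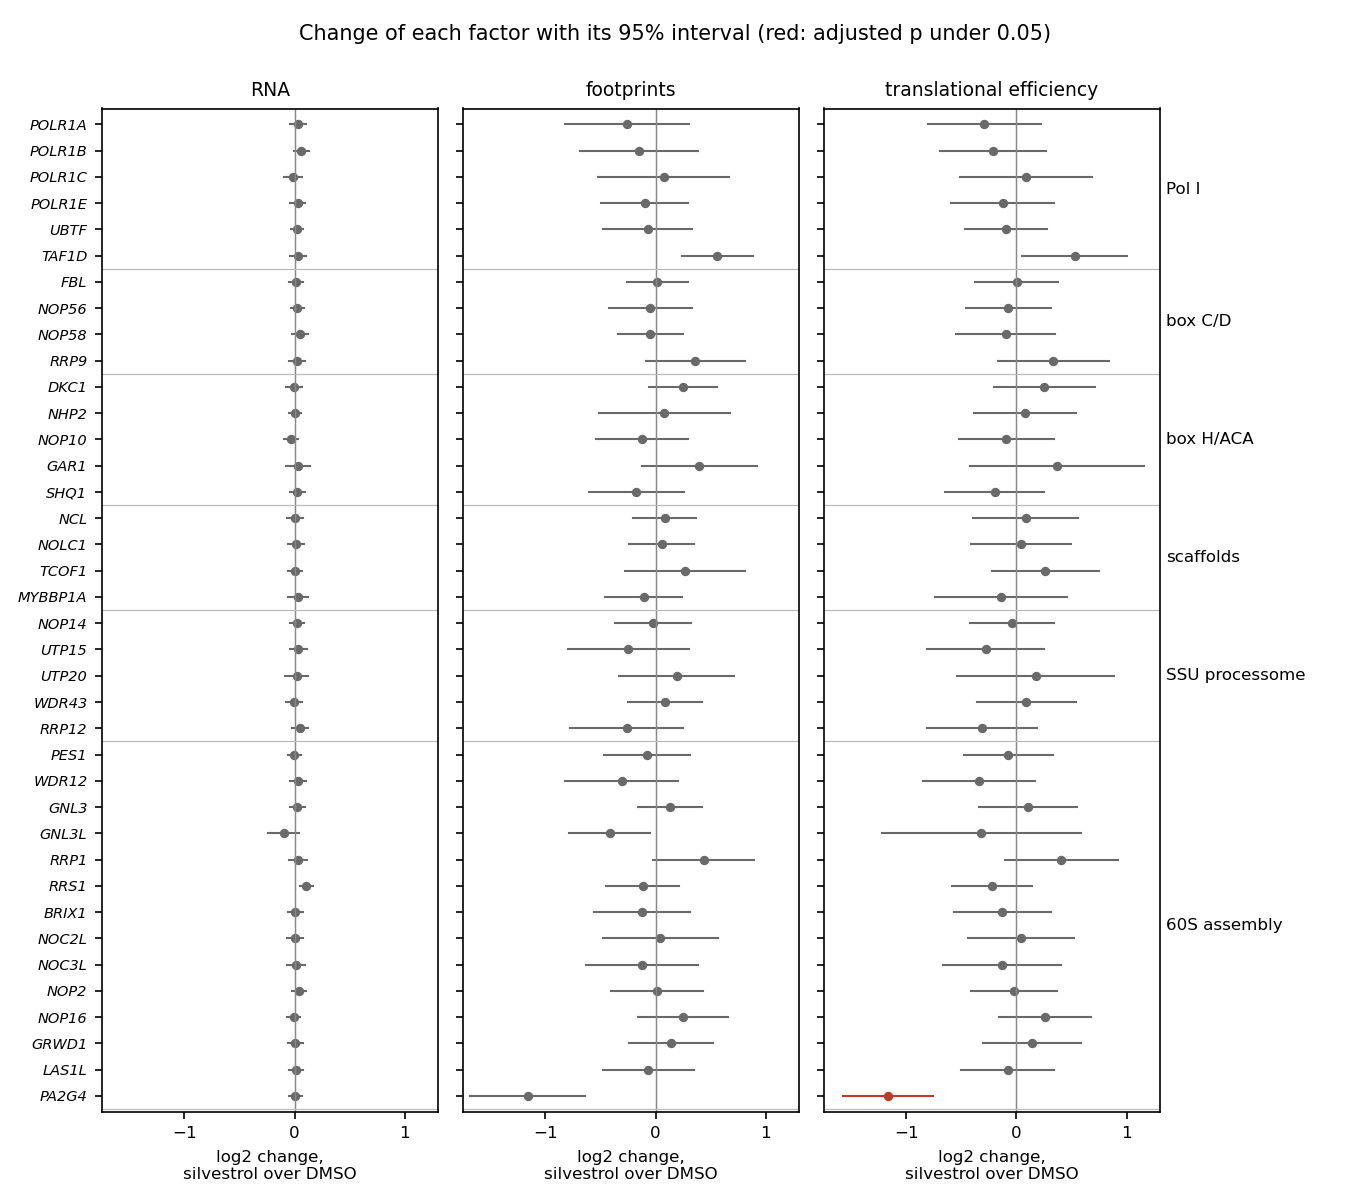
Log2 change, silvestrol over DMSO, of each gene in RNA, footprints and translational efficiency, with bars for limma's 95% interval and red for adjusted p under 0.05. RNA changes lie between -0.10 and 0.10 with short bars, and the PA2G4 interval in translational efficiency, -1.57 to -0.76, is the one drawn in red.

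The libraries were also read directly, with no test. Both silvestrol footprint libraries lay above both DMSO libraries for 8 of the 38 genes (21.1%), against 13.1% of all genes, and below both for 6 of the 38 (15.8%), against 25.2% of all genes. The 8 were TAF1D, RRP9, DKC1, GAR1, NCL, UTP20, GNL3 and RRP1, and the 6 were POLR1A, SHQ1, MYBBP1A, RRP12, GNL3L and PA2G4. In RNA all 3 silvestrol libraries lay above all 3 DMSO libraries for 4 of the 38 (10.5%, against 8.97% of all genes): POLR1B, UBTF, RRS1 and NOP2. No member's RNA lay wholly below, against 3.99% of all genes.

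Among the 6 RNA polymerase I genes none was called in any comparison. UBTF, the factor that opens ribosomal DNA chromatin for polymerase I, had the highest RNA of these genes, with 55.2, 55.4 and 55.9 RPKM in silvestrol and 54.9, 54.5 and 54.3 RPKM in DMSO. Its footprints were 25.5 and 26.4 RPKM in silvestrol and 30.5 and 24.4 RPKM in DMSO, and the groups overlapped. POLR1A, the catalytic subunit and the lowest of the group in RNA, had footprints of 6.47 and 5.45 RPKM in silvestrol and 7.77 and 6.68 RPKM in DMSO. The POLR1A groups did not overlap, but the footprint change of -0.26 (SE 0.23) did not pass limma's test over all genes (adjusted p = 0.825), and it was -0.16 without DMSO footprint library 1 and -0.14 without silvestrol footprint library 2. POLR1B, the second-largest subunit, had a footprint change of -0.15 (SE 0.22), which was 0.01 without silvestrol footprint library 1, -0.31 without silvestrol library 2, -0.05 without DMSO library 1 and -0.25 without DMSO library 2. POLR1C and POLR1E, the other polymerase subunits listed, had overlapping groups in footprints and in RNA.

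TAF1D, a subunit of the SL1 complex that recruits polymerase I to its promoter, had the largest positive footprint change of the 38. Its footprints were 40.3 and 38.8 RPKM in silvestrol and 26.6 and 26.7 RPKM in DMSO. Its RNA was 32.9, 34.4 and 33.3 RPKM in silvestrol and 34.1, 31.7 and 32.6 RPKM in DMSO. The footprint groups were well apart while the RNA groups overlapped. The footprint change was 0.56 (SE 0.13) and missed the threshold over all genes (limma, adjusted p = 0.600). The change in translational efficiency was 0.53 (SE 0.22, adjusted p = 0.616), and with 1 spread shared by both assays it passed (adjusted p = 0.00808), in a fit that called 1.3% of all genes higher, 3.99% lower and 5.29% in either direction. TAF1D hosts 8 snoRNA genes, 7 of them within its annotated exons, and the sources used here do not say how reads were assigned to a snoRNA or to its host. Those 7 were listed at 0 in every library, of footprints and of RNA. The zeros do not show whether their reads were absent, dropped or counted for TAF1D. The part of such reads in the TAF1D values was not tested.

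Box C/D snoRNPs include those that guide methylation of ribosomal RNA, and none of their listed proteins was called. FBL (fibrillarin), the methyltransferase itself, had footprints of 255 and 268 RPKM in silvestrol and 257 and 260 RPKM in DMSO. FBL RNA was 273, 288 and 279 RPKM in silvestrol and 280, 280 and 272 RPKM in DMSO, with overlap in both assays. The core proteins NOP56 and NOP58 overlapped in footprints too, NOP56 with 86.5 and 68.5 RPKM in silvestrol and 76.5 and 82.9 RPKM in DMSO. RRP9, the U3 snoRNP protein, had footprints of 61.0 and 45.2 RPKM in silvestrol and 43.6 and 38.1 RPKM in DMSO. The RRP9 groups did not overlap, yet the silvestrol libraries differed from each other by more than the lower one differed from DMSO, and the footprint change of 0.36 (SE 0.18) was not called (limma, adjusted p = 0.738). It was 0.15 without silvestrol footprint library 1 and 0.58 without silvestrol footprint library 2.

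The box H/ACA proteins carry out pseudouridylation, and DKC1, NHP2, NOP10 and GAR1 also bind telomerase RNA. DKC1 (dyskerin), the pseudouridine synthase, had footprints of 77.7 and 85.7 RPKM in silvestrol and 71.3 and 65.9 RPKM in DMSO. GAR1 had 65.1 and 71.2 RPKM in silvestrol and 63.5 and 41.8 RPKM in DMSO. Both were higher in every silvestrol library, with footprint changes of 0.25 (SE 0.13) for DKC1 and 0.40 (SE 0.21) for GAR1 that were not called (limma, adjusted p = 0.738 and 0.741). The GAR1 change was 0.10 without DMSO footprint library 2 and 0.70 without DMSO footprint library 1. NOP10, the smallest core protein, had the highest mean footprint RPKM of the list, with 360 and 263 RPKM in silvestrol footprints and 340 and 330 RPKM in DMSO footprints. In silvestrol footprint library 2 it lay below NCL and FBL. SHQ1, the chaperone that delivers dyskerin, was the lowest of the group in RNA and had footprints of 11.4 and 11.9 RPKM in silvestrol and 12.9 and 13.5 RPKM in DMSO, a change of -0.17 (SE 0.18, adjusted p = 0.845).

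The nucleolar scaffolds were likewise not called. NCL (nucleolin), the abundant nucleolar RNA-binding protein, had the highest RNA of the whole list, with 345, 378 and 357 RPKM in silvestrol and 366, 352 and 360 RPKM in DMSO. Its footprints were 283 and 278 RPKM in silvestrol and 276 and 253 RPKM in DMSO, apart by 2 RPKM between the nearest libraries. TCOF1 (treacle), which works with UBTF in ribosomal DNA transcription, was the lowest of these genes in RNA, and its footprints overlapped, with 10.8 and 14.6 RPKM in silvestrol and 11.1 and 9.66 RPKM in DMSO. MYBBP1A, a nucleolar transcription regulator, had 25.4 and 28.4 RPKM in silvestrol footprints and 28.9 and 29.1 RPKM in DMSO footprints. NOLC1, the snoRNP chaperone Nopp140, had overlapping groups in both assays.

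Factors of the small subunit processome, the particle that forms on the nascent precursor around U3 snoRNA, gave no call. NOP14 had the highest RNA of the 5, with footprints of 47.4 and 44.5 RPKM in silvestrol and 50.6 and 43.0 RPKM in DMSO. UTP15, the lowest in RNA, had 12.2 and 9.70 RPKM in silvestrol footprints and 11.4 and 14.8 RPKM in DMSO footprints. These 2 genes overlapped between treatments. UTP20 lay above DMSO in both silvestrol libraries, with 9.11 and 7.70 RPKM in silvestrol and 7.57 and 6.96 RPKM in DMSO. RRP12, whose yeast counterpart acts in nuclear export of pre-ribosomes, lay below, with 9.96 and 8.31 RPKM in silvestrol and 10.1 and 12 RPKM in DMSO, a footprint change of -0.26 (SE 0.21, adjusted p = 0.815 by limma) that was -0.14 without DMSO or silvestrol footprint library 2. WDR43 had overlapping groups in both assays.

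Of the 14 large subunit factors analysed, 13 were not called. GNL3 (nucleostemin), a nucleolar GTPase of proliferating cells, had footprints of 70.2 and 67.5 RPKM in silvestrol and 61.8 and 63.5 RPKM in DMSO. Its relative GNL3L had the opposite order, with 20.3 and 20.3 RPKM in silvestrol and 28.8 and 25.8 RPKM in DMSO. GNL3L also had the lowest silvestrol RNA of the group, with 9.46, 9.28 and 8.66 RPKM in silvestrol and 10.1, 10.6 and 8.81 RPKM in DMSO. The GNL3L footprint change was -0.42 (SE 0.15, adjusted p = 0.675), its RNA change -0.10 (SE 0.06, adjusted p = 0.751) and its change in translational efficiency -0.32 (SE 0.41, adjusted p = 0.925), all by limma. The RNA change was -0.05 without DMSO RNA library 2, -0.17 without DMSO RNA library 3 and -0.06 without silvestrol RNA library 3. RRP1, whose yeast counterpart processes large subunit rRNA, had footprints of 13.4 and 15.8 RPKM in silvestrol and 10.6 RPKM in both DMSO libraries, a change of 0.44 (SE 0.19, adjusted p = 0.722). WDR12, a partner of PES1, had overlapping footprints, with 14.9 and 19.0 RPKM in silvestrol and 23.7 and 18.5 RPKM in DMSO.

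RRS1, whose yeast counterpart brings the 5S ribonucleoprotein into the pre-60S particle, had the largest RNA change of the 38, and is given here because of it. Its RNA was 35.4, 34.8 and 35.3 RPKM in silvestrol and 32.8, 32.7 and 32.5 RPKM in DMSO. The groups did not overlap, and the change of 0.10 (SE 0.03) was not called over all genes (limma, adjusted p = 0.165). RRS1 footprints were 42.7 and 44.7 RPKM in silvestrol and 50.5 and 44.5 RPKM in DMSO, with overlap. For PES1, BRIX1, NOC2L, NOC3L, NOP2, NOP16, GRWD1 and LAS1L the footprint groups overlapped as well.

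PA2G4 (EBP1), a growth regulator that binds ribosomes and late pre-60S particles, was the 1 gene called. It is recorded as ENSG00000170515.8 on chromosome 12. Footprints averaged 5.11 ± 0.47 RPKM in silvestrol and 12.1 ± 1.06 RPKM in DMSO (SD, n = 2 each), a ratio of 0.424. RNA averaged 197 ± 4.58 RPKM in silvestrol and 196 ± 3.21 RPKM in DMSO (SD, n = 3 each). Both silvestrol footprint libraries lay far below both DMSO libraries, and the RNA groups overlapped. The change in translational efficiency was -1.17 (SE 0.19, limma over 10297 genes, adjusted p = 0.0415). The footprint change alone was -1.16 (SE 0.21) and missed the threshold (limma, unadjusted p = 0.00154, adjusted p = 0.403).

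In the GENCODE release 29 transcript PA2G4-201, the 5′ UTR held 4 GGC triplets in a row, read on the mRNA strand. PA2G4 was the 1 gene of the 38 with such a run. That is 2.63% of the members, beside 374 of 8802 tested genes with a 5′ UTR sequence (4.25%). Counting 4 CGG in a row as well, which overlaps the first motif, left 1 member and gave 416 tested genes (4.73%). The run lies at bases 371 to 382 of a 419-base 5′ UTR, close to the start codon at base 420. The members had a median 5′ UTR of 163 bases against 192 bases for all tested genes. A link between the repeat and the PA2G4 change was not tested. The repeat is shown because the study's title concerns G-rich structures. Its 12 bases are in capitals, with the transcript sequence around them.
PA2G4 5′ UTR: ggagacagaGGCGGCGGCGGCtcaggggaa

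**Figure D3:**
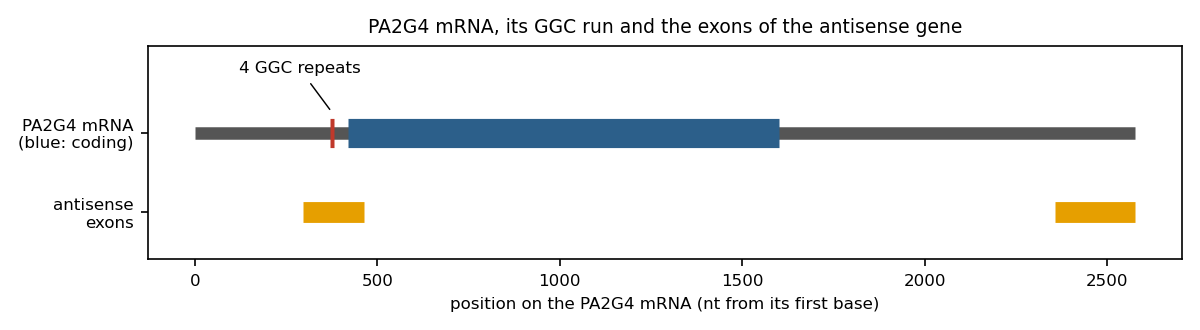
Map of the 2577-base PA2G4 mRNA, with position from its first base on the x axis, the coding sequence in blue (bases 420 to 1601), the GGC run in red and, below, the exons of an antisense gene that fall on it. The first antisense exon covers bases 296 to 464, which holds both the GGC run and the start codon.

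The PA2G4 footprint values rest on few reads and on an unusual locus. Estimated reads were 43.1 and 42.0 in silvestrol and 110 and 71.3 in DMSO. The value of 42.0 was the lowest of any member in any footprint library, and the lowest of another member was 62.1. An antisense gene, ENSG00000257553, has 434 exon bases, all opposite exons of PA2G4 and equal to 11.4% of its exon length. This antisense gene had 69.8 and 95.1 RPKM in silvestrol footprints and 80.3 and 65.2 RPKM in DMSO footprints, with overlap. Its RNA, 173, 183 and 177 RPKM in silvestrol and 184, 179 and 178 RPKM in DMSO, was close to the level of PA2G4 RNA itself. The sources used here do not say whether counting used strand, so reads of the pair cannot be told apart. With the antisense footprint reads added to PA2G4, the change in translational efficiency was -0.48 (limma, adjusted p = 0.592), and the summed footprints per M reads were 48.4 and 61.9 in silvestrol against 83.4 and 71.2 in DMSO. The summed groups still did not overlap, with silvestrol lower, but footprints lay apart in this way for 25.2% of all tested genes. PA2G4 also has 6 named processed pseudogenes, the most of any member, and the sources do not say how reads that map to several places were counted. The part of pseudogenes in the result was not tested.

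**Figure D4:**
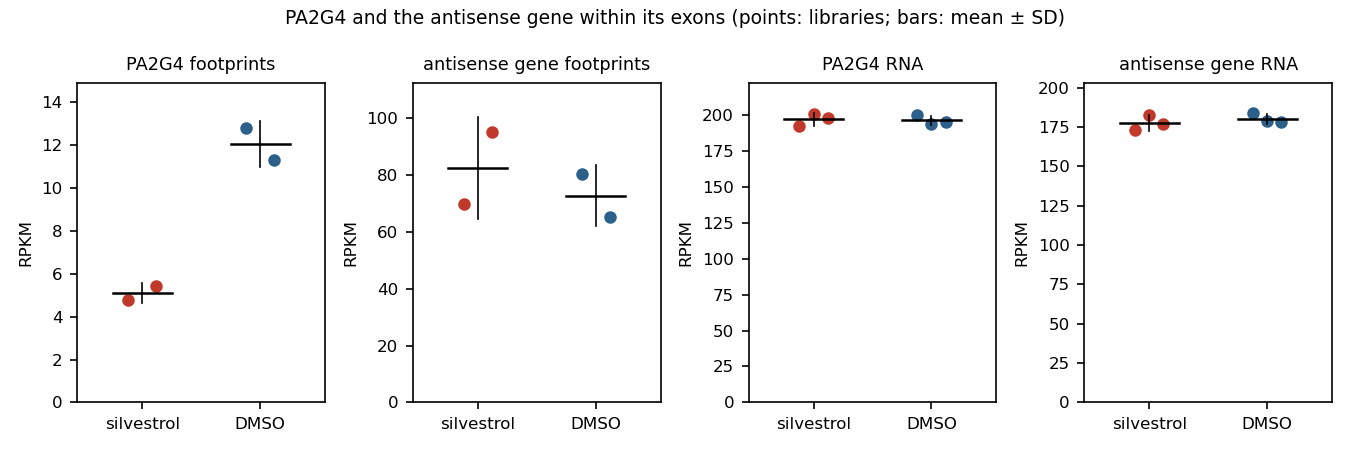
RPKM of PA2G4 and of the antisense gene within its exons, in footprints and in RNA, with silvestrol left of DMSO, 1 point per library, and bars for the mean ± SD. PA2G4 footprints are apart between treatments (means 5.11 and 12.1 RPKM), while antisense footprints and both RNAs overlap.

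The call itself was near the threshold. The same fit also made calls on simulated data in which nothing had been changed, at least as many as on the real data. The simulation took each gene's observed spread between libraries as its true spread. How many of the real calls are false therefore cannot be read from it. The adjusted p of PA2G4 in translational efficiency was 0.0541 with a pseudocount of 1, 0.147 with no filter on low values and 0.125 with voom on estimated reads, and it was 0.00915 with a filter at 5 RPKM. The change lay between -1.25 and -1.08 with any 1 library left out. Without 1 library the adjusted p ran between 0.0276 and 0.211, and was above 0.05 without any of the 4 footprint libraries, without DMSO RNA library 2 or 3 and without silvestrol RNA library 3.

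Footprints per RNA spread widely within the list in DMSO cells. The ratio of mean footprint RPKM to mean RNA RPKM had a median of 0.723 in silvestrol and 0.732 in DMSO over the 38 genes, and of 0.694 in silvestrol and 0.740 in DMSO over all tested genes. In DMSO 8 genes had a ratio above 1, in falling order GNL3L (2.78), NOP10 (2.33), RRS1 (1.45), GAR1 (1.41), UTP15 (1.34), NOC3L (1.13), POLR1E (1.05) and NOP16 (1.01). GNL3L and NOP10 stood apart from RRS1 in both DMSO libraries, while RRS1, GAR1 and UTP15 were not separated from each other by the spread between the 2 libraries. RPKM divides by the full exon length, of which ribosomes cover mainly the coding part, so a gene with long UTRs has a lower ratio for the same ribosome load.

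At the low end of the same order came NOP2 (0.462), NHP2 (0.308) and NOC2L (0.263), and then PA2G4 at 0.0614 in DMSO and 0.0259 in silvestrol. PA2G4 had the third-highest RNA of the 38 in DMSO and a footprint value below that of genes with far less RNA. Its mean DMSO footprints per M reads were 45.7 alone and 77.3 with the antisense reads added. How antisense and pseudogene reads were counted is not known, and their part in the low PA2G4 ratio was not tested. NHP2, the H/ACA core protein, had 41.5 and 34.2 RPKM in silvestrol footprints and 44.7 and 28.3 RPKM in DMSO footprints, with 119, 119 and 118 RPKM of RNA in silvestrol and 120, 119 and 116 RPKM in DMSO. NOC2L, whose yeast counterpart moves pre-60S particles out of the nucleolus, had 6.68 and 7.63 RPKM in silvestrol footprints and 7.09 and 6.74 RPKM in DMSO footprints. The ratio of NOC2L was 0.272 in silvestrol and 0.263 in DMSO, and that of NHP2 was 0.319 in silvestrol and 0.308 in DMSO, so both stayed low under either treatment.

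**Figure D5:**
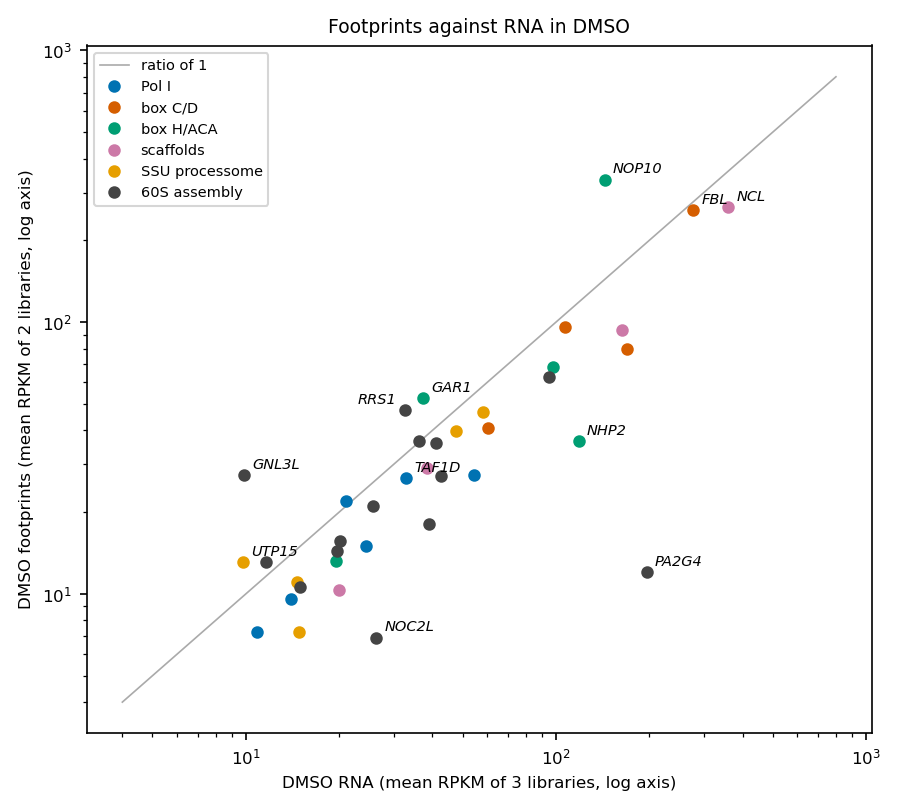
Mean DMSO footprint RPKM (2 libraries) against mean DMSO RNA RPKM (3 libraries) for the 38 genes on log axes, coloured by role, with a line at a ratio of 1. GNL3L and NOP10 lie above the line at ratios of 2.78 and 2.33, and PA2G4 lies far below it at 0.0614. For PA2G4, how antisense and pseudogene reads were counted is not known.

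Promoter sequence, which the list did not use, was read for 2 features. RefSeq promoter windows (GRCh38.p14, 250 bases before to 50 bases after the annotated start) were found for 32 of the 38. The E-box CACGTG, the palindrome bound by MYC and related factors and read alike on both strands, occurred in 10 of the 32 (31.3%), against 823 of 7716 tested genes with a window (10.7%) and 2030 of all 27305 windows (7.43%). The 10 were FBL, RRP9, NOP10, MYBBP1A, NOP14, UTP20, WDR43, PES1, NOC3L and NOP2. In 9 of the 10 the first letter of the motif lay within 50 bases of the annotated start. NOP10 had 2 copies, the first 170 bases before the start and the other within 50 bases of it. All 10 thus had a copy that near. Windows of 30 bases are shown for 3 genes of different roles, with the E-box in capitals, on the strand of the gene: FBL at chr19:39846356-39846385 on the minus strand, UTP20 at chr12:101280083-101280112 on the plus strand and PES1 at chr22:30591880-30591909 on the minus strand. A match is a description of letters, and the RNA of FBL, UTP20 and PES1 overlapped between treatments.
FBL: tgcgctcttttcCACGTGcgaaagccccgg
UTP20: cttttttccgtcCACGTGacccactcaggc
PES1: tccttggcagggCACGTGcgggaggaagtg

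A start with C and at least 4 further pyrimidines, as in terminal oligopyrimidine (TOP) mRNAs of ribosomal proteins, was annotated for 3 of the 32 genes (9.38%), against 6.0% of tested genes and 4.04% of all windows. They were TAF1D, FBL and SHQ1. The start region is shown for TAF1D and for PA2G4, the genes with the most positive and the most negative footprint change, with the pyrimidine run of TAF1D and the first base of PA2G4 in capitals. The RefSeq windows are chr11:93741480-93741509 on the minus strand and chr12:56104545-56104574 on the plus strand (GRCh38.p14). In FBL the last base of the pyrimidine run is the first base of the E-box.
TAF1D: cggaaatagccaacCCTTTTCTTCCgcacg
PA2G4: gtgccctgcgcctcAgcccgcgcgctcgca

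A second list of 93 other ribosome biogenesis genes, including the remaining polymerase I subunits, UTP and RRP factors and export factors, was read in the same way. Of these, 90 were matched, all but NOL12, AATF and ZNHIT3, and 89 were tested, and none was called by limma in translational efficiency, footprints or RNA, nor by voom in the first 2. At an unadjusted p under 0.05 there were 1 lower and 2 higher in translational efficiency, 4 lower and 3 higher in footprints and 0 lower and 1 higher in RNA. Over all genes that p was reached in translational efficiency by 5.29% lower and 2.09% higher, in footprints by 4.87% and 2.12% and in RNA by 2.27% and 6.95%. The median log2 change was 0.01 in translational efficiency, 0.02 in footprints and 0.02 in RNA. The most positive RNA changes were those of UTP3 (0.12, SE 0.03, limma adjusted p = 0.146), MDN1 (0.11, SE 0.08) and URB2 (0.07, SE 0.04). UTP3, a processome factor, averaged 43.7 ± 0.91 RPKM in silvestrol RNA and 40.1 ± 0.85 RPKM in DMSO RNA (SD, n = 3 each). The most negative were NOL9 (-0.08, SE 0.07), RUVBL2 (-0.05, SE 0.03) and NSA2 (-0.05, SE 0.04). Leaving out 1 library moved all of these but UTP3: at the extremes, MDN1 was 0.04 without silvestrol RNA library 3 and 0.19 without DMSO RNA library 3, and NOL9 was -0.02 without silvestrol RNA library 3 and -0.14 without silvestrol RNA library 1. URB2 was 0.04 without DMSO RNA library 2, RUVBL2 -0.08 without DMSO RNA library 3 and NSA2 -0.02 without DMSO RNA library 1.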

How the data were processed

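Footprints and total RNA of KOPT-K1 cells were compared between silvestrol and DMSO, grouped by sample title. The authors deposited RPKM values per gene for each library, per the file headers. The submitters' processing notes name STAR and hg19 and give no version or role. The counter, gene lengths, strand and handling of multi-mapped reads were not given in the sources used here.

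A name table matched 49395 of 55889 IDs and GENCODE release 29 named 267 more. Reads were estimated from the steps of low values and GENCODE exon lengths. Between 90.7% and 93.1% of low values lay within 0.05 of a whole read, but summed reads of RNA genes reached 118% to 120% of the totals, so these are rough. Replicates had a median log2 SD of 0.19 in silvestrol and 0.18 in DMSO footprints, and 0.05 in silvestrol and 0.04 in DMSO RNA.

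Values were analysed as log2(RPKM + 0.5), which understates changes of low genes, with limma 3.58.1 in R 4.3.3 (eBayes with trend and robust). Tests were two-sided, with Benjamini-Hochberg adjustment over 10297 genes and a threshold of 0.05. Translational efficiency was the assay-by-treatment interaction in 1 fit of 10 libraries, with precision weights estimated per assay. Footprints (4 libraries) and RNA (6 libraries) were also fitted apart. Tested on simulated data with nothing changed, the fits of 1 assay made no calls, but the translational efficiency fit did. Alternatives were the pseudocount, the filter, scaling, the replicate block, 1 spread for both assays, voom and leaving out each library. Adding antisense reads to PA2G4 and testing protein-coding genes only were chosen after seeing the data.

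The members and lists were chosen with earlier results of these data known. Library values are given for called members, the highest and lowest of each role in DMSO RNA, and members whose footprints did not overlap between treatments. Over the tested genes, deviations of same-numbered libraries had a correlation of -0.0332 in footprints, and of 0.0422, -0.327 and 0.15 in RNA. Between differently numbered RNA libraries it ran from -0.319 to 0.303. With so few libraries, these values cannot settle whether libraries were paired.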

Additional observations from a re-analysis of the deposited data

How the results depend on the processing

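No member was called in footprints or in RNA under any alternative run. In translational efficiency 1 member was called lower in the main fit. The count was 0 with antisense reads added, no filter, a pseudocount of 1, the replicate block or voom. It was 0 to 1 with 1 RNA library left out. With 1 spread for both assays PA2G4 was called lower (limma, adjusted p = 0.00109) and 1 member higher. In that fit 2 of the 89 other ribosome biogenesis genes were called higher and 2 lower. Over all genes it called 1.3% higher and 3.99% lower. The PA2G4 change was -1.17 with the replicate block (limma, adjusted p = 0.123). The labels do not say whether same-numbered libraries were paired. Over all genes, lower translational efficiency calls were 411 with 1 spread and 18 with voom (6 to 32 leaving 1 library out) and higher calls 134 with 1 spread, 1 at 5 RPKM, 7 with no filter, 4 with quantile normalization and 4 with the block (2 to 12). Lower footprint calls were 0 at 5 RPKM, 1 with no filter, 0 at a pseudocount of 0.1, 0 with the block and 20 with voom (0 to 0), and higher calls 1, 5, 1 and 6 with no filter, quantile normalization, the block and voom (0 to 0). Higher RNA calls were 0 with no filter and 49 with the block (0 to 30), and lower calls 2 at 5 RPKM, 2 with median scaling, 0 with no filter, 0 with quantile normalization and 8 with the block (0 to 5). RNA changes near 0 turned sign: DKC1 was 0.0032 with quantile normalization and -0.025 to 0.026 leaving 1 library out, PA2G4 -0.0084 with median scaling and -0.0098 to 0.023, GAR1 -0.031 to 0.076 and RRP9 -0.0030 to 0.041. POLR1B in footprints was -0.31 to 0.0064. The cause was not tested. Footprint libraries had fewer reads and a wider spread between replicates than RNA libraries.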

Other observations

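The members carry 32 annotated small nucleolar or Cajal body RNA genes within 8 host genes, and 29 of these RNAs had a deposited value. In footprints 14 were listed at 0 in every library, 4 were higher in both silvestrol than in both DMSO libraries, and 3 were lower. Of all tested genes, which had to pass the RPKM filter, 13.1% were higher in this way and 25.2% lower. The 4 and 3 are therefore not read as a result about these RNAs. The 7 named here were chosen after their values were seen. These RNAs do not code for protein, so their values in the footprint libraries are not a measure of translation. What the fragments came from was not tested. The 4 higher ones were SNORD20 and SNORD82 of NCL, SNORD19B of GNL3 and SNORD86 of NOP56, and the 3 lower ones SNORD110 of NOP56, SNORD69 of GNL3 and SNORD53 of WDR43. SNORD20, in an intron of NCL, had 1680 and 1790 RPKM in silvestrol footprint libraries and 1040 and 745 RPKM in DMSO footprint libraries, and the groups did not overlap. Its total RNA values were 5.13, 6.60 and 6.29 RPKM in silvestrol and 5.53, 5.71 and 4.36 RPKM in DMSO, with overlap. SNORD110 had 6050 and 6200 RPKM in silvestrol footprints and 7800 and 6760 RPKM in DMSO footprints. SNORD69 had 92.9 and 95.7 RPKM in silvestrol footprints and 195 and 125 RPKM in DMSO footprints.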
